A study of Mus musculus with 4 samples.

Results

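The 328 spots described here are those with the highest summed share of Nr4a2, Ntng2 and Bmp3 transcripts in 4 mouse brain sections, out of 10948 spots kept. A spot was kept if it lay under tissue and held at least 2000 unique molecular identifiers (UMI, 1 per captured probe molecule), and the top 3% of the kept spots of each section were selected. This gave 78 of 2596 spots in control replicate 1, 83 of 2774 in control replicate 2, 89 of 2972 in rNLS8 replicate 1 and 78 of 2606 in rNLS8 replicate 2, and wherever 4 values follow below they stand in this order of sections. The working name of the set is claustrum and endopiriform, which the data bear out only in part, as given below, so the spots are called here by the genes that chose them.

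Spatial gene expression was measured with the Visium assay, in which barcoded spots on a slide capture probes from the tissue above them, on 5 µm sections of formalin-fixed, paraffin-embedded brain. A spot is a small area that can hold several cells of different types. There were 2 control and 2 rNLS8 sections, all labelled as from mice 11 weeks old, with doxycycline (Dox) withdrawal as the treatment of every sample, controls included. The interval from withdrawal to tissue collection is not given in the sources used here. rNLS8 mice are known as a line in which neurons driven by the neurofilament heavy chain promoter make human TDP-43 without its nuclear localization signal once Dox is removed, a model of TDP-43 disease. The alleles of the control mice are labelled only as control. The labels call replicate 1 of each group female and replicate 2 male, but Y-linked genes stood at 0 CPM (UMI of a gene per 1000000 UMI of the sum) in control replicate 1, 107 in control replicate 2, 137 in rNLS8 replicate 1 and 139 in rNLS8 replicate 2, so the section labelled rNLS8 replicate 1 went against its sex label. Control replicate 1 was thus the only section without Y-linked UMI. By these genes the replicate number did not stand for sex, and sex was not balanced between the groups. The part of sex in the results was not tested. Nothing in the labels says that the sections of a group came from separate animals, and p-values therefore measure only the spread between these sections.

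The claustrum is a thin sheet of grey matter between the insular cortex and the striatum, and the endopiriform nucleus continues it below, deep to the piriform cortex. Both are known for excitatory neurons that are widely connected with the cortex. Nr4a2 encodes a nuclear receptor that is a standard marker of claustrum and of the deepest cortical layer, and also of midbrain dopamine neurons. Ntng2 encodes netrin-G2, an adhesion protein of excitatory neurons with strong expression in claustrum and piriform cortex, and Bmp3 encodes a secreted member of the bone morphogenetic protein family.

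In RefSeq's annotation of GRCm38.p6, the assembly that the files' build mm10 stands for, Nr4a2 lies on chromosome 2 from 57106830 to 57124003, Ntng2 on chromosome 2 from 29194726 to 29248099 and Bmp3 on chromosome 5 from 98854415 to 98884053. All are protein-coding. The 250 bases before the start of Nr4a2 are shown because it had the largest ratio over the remaining spots and is known as an immediate response gene of the cyclic AMP pathway. They are chr2:57124004-57124253, minus strand, read 5′ to 3′, with each TGACG, the core of the cyclic AMP response element, in capitals on either strand.
Nr4a2: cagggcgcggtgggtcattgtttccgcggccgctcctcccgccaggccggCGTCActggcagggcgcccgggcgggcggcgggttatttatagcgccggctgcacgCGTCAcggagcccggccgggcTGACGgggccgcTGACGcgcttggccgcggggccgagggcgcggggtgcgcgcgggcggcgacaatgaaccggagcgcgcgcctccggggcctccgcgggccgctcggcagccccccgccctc
This stretch held 4 matches to TGACG, counting both strands. Of 32851 promoter stretches of the same length, 17.8% held at least 1 match. Among 6496 matched promoters of genes tested in the selected spots (below), the share was 31.7%.

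The selection rested on few molecules per spot. The selected spots held a median of 7, 7, 6 and 3 UMI of the selecting genes, and 26.9%, 41.0%, 29.2% and 57.7% of them were selected on 3 or fewer. The lowest selected spot had 6.95, 6.41, 4.55 and 5.25 selecting UMI per 10000, and the next spot outside had 6.95, 6.40, 4.55 and 5.24. Within the selected spots, Nr4a2 was detected in 62.8%, 62.7%, 51.7% and 48.7%, Ntng2 in 100%, 98.8%, 96.6% and 93.6%, and Bmp3 in 42.3%, 55.4%, 56.2% and 38.5%. All 3 genes were detected together in 23, 31, 29 and 14 spots. In the remaining spots, Nr4a2 had a UMI in 7.04% to 10.8%, Ntng2 in 37.8% to 45.4% and Bmp3 in 12.2% to 17.0%. Ntng2 therefore carried most of the score, and a spot without Nr4a2 was common among those selected.

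The levels of the selecting genes in the summed selected spots are given as a description, since they chose the spots. Nr4a2 stood at 209 and 282 CPM in the control sections and 118 and 122 CPM in the rNLS8 sections, against 11.2 to 16.7 CPM in the remaining spots. Ntng2 stood at 737 and 775 CPM in control and 434 and 474 CPM in rNLS8, against 63.0 to 99.8 CPM. Bmp3 stood at 67.8 and 89.2 CPM in control and 108 and 102 CPM in rNLS8, against 17.7 to 29.7 CPM. A fixed 3% per section admitted lower shares in rNLS8 sections: with 1 threshold for all sections, 87 and 75 control spots but 30 and 37 rNLS8 spots passed, which is 3.35%, 2.70%, 1.01% and 1.42% of kept spots.

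On the array, part of the selected spots lined up into bands and part were scattered. The longest run of adjoining selected spots held 18, 38, 32 and 9 spots and spanned 9, 17, 12 and 5 array steps. Runs of 5 or more spots held 47, 38, 40 and 16 spots, or 60.3%, 45.8%, 44.9% and 20.5% of those selected. The control sections thus had the larger shares in runs, rNLS8 replicate 2 had the smallest, and the groups did not overlap by a narrow margin (exact two-sided permutation test over sections, p = 0.333, the smallest that 2 against 2 sections allow). At least 1 of up to 6 neighbouring spots was also selected for 73.1%, 48.2%, 60.7% and 48.7% of selected spots, against 7.94%, 10.1%, 8.81% and 11.9% of remaining spots. This share overlapped between groups (rNLS8 minus control, -5.94 percentage points, exact permutation p = 1). Selected spots at the tissue edge made up 0%, 4.82%, 13.5% and 15.4%, against 0.397%, 3.90%, 5.62% and 7.48% of remaining spots, so edge spots were more common in the rNLS8 sections. Their part in the results was not tested. Results below are therefore also given for the 141 selected spots in runs, called the bands.

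**Figure D1:**
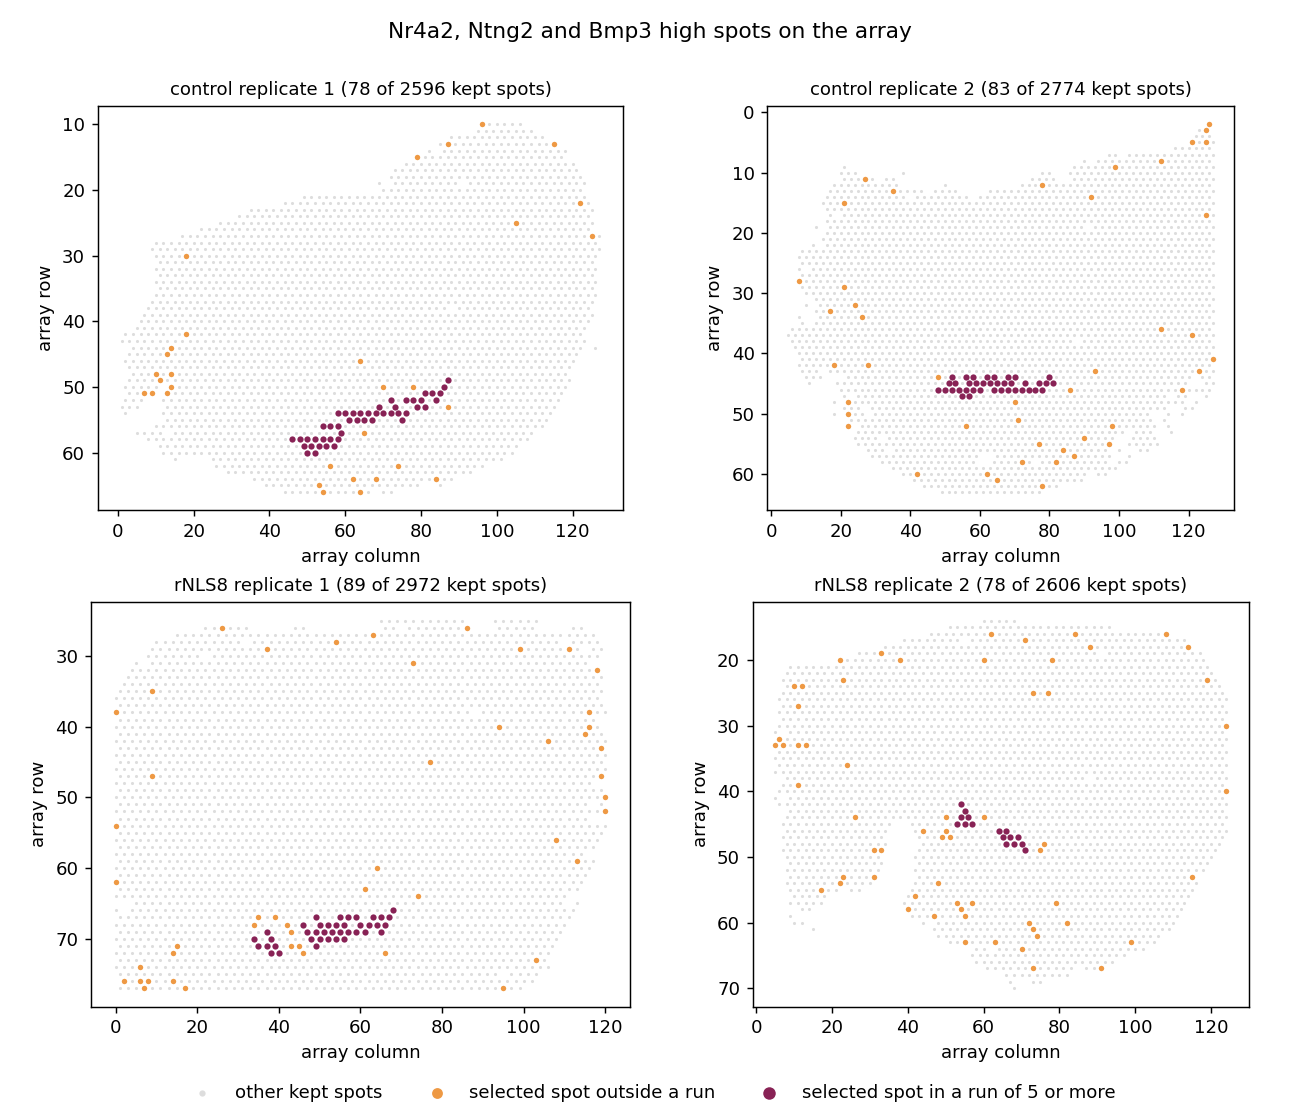
Position of the selected spots on the array, 1 panel per section, with array column across and array row down; grey points are remaining kept spots and coloured points are selected spots outside and inside runs of 5 or more. Long bands stand out in the control sections and in rNLS8 replicate 1 (longest runs of 18, 38 and 32 spots), while rNLS8 replicate 2 has its longest run at 9 spots.

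The authors' deposited table of Moran's I, a score of how far a gene's level is shared between neighbouring spots, was read for the selecting genes and for Gnb4 and Lxn, described below. Nr4a2 scored 0.104, 0.170, 0.146 and 0.0701 in the authors' deposited table. Ntng2 scored 0.124, 0.139, 0.124 and 0.0759 in the authors' deposited table, and Bmp3 0.0280, 0.0947, 0.115 and 0.0777. In the authors' deposited table Gnb4 scored 0.121, 0.0922, 0.0939 and 0.0751, and Lxn 0.0468, 0.0318, 0.00303 and 0.0138. Nr4a2, Ntng2 and Gnb4 had their lowest scores in rNLS8 replicate 2, Bmp3 had its lowest in control replicate 1, and Lxn scored below Gnb4 in every section.

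The label was checked against 9 further genes known from claustrum and endopiriform, none used to select: Gnb4, Lxn, Gng2, Oprk1, Synpr, Car3, Npsr1, Nr2f2 and Slc17a6. Their summed level in the selected spots was 925, 1246, 564 and 474 CPM, which is 1.47, 1.89, 0.83 and 0.66 log2 units above the remaining spots of the same section. All 9 were higher in the selected spots of both control sections and of rNLS8 replicate 1, and 8 of 9 in rNLS8 replicate 2. In the bands the sums were 1092, 1493, 718 and 655 CPM, and 9, 9, 9 and 7 of the 9 genes were higher. Car3 and Slc17a6 stood at 0 CPM in the bands of rNLS8 replicate 2. Striatal markers were lower in the selected spots, by log2 ratios of -1.10, -1.47, -0.74 and -0.43, and markers of fibre tracts by -0.56, -0.67, -0.43 and -0.44. Layer 6b and subplate neurons also express Nr4a2, and their 6 markers did not move together. The sum was lower at -0.63, -0.71, -0.24 and -0.28, with Kcnab1 the most abundant of the 6, but 4, 3, 5 and 0 of the 6 genes were higher in the selected spots. Ccn2, a defining layer 6b gene, had log2 ratios of 0.68, 1.29, 1.27 and -0.20, and the median of the 4 markers with enough UMI was 0.33, 0.70, 0.75 and -0.30. The selected spots of both control sections and of rNLS8 replicate 1 thus also held more RNA of several layer 6b genes than the remaining spots, and the part of layer 6b in the results was not tested. Layer 6 markers lay near the remaining spots at -0.09, -0.01, 0.31 and -0.13. Markers of midbrain dopamine neurons, the other known home of Nr4a2, summed to 3.57 to 18.5 CPM, and their transporter gene Slc6a3 had 0 CPM in the selected spots of every section. By the claustrum genes the label held best in the control sections. Over all selected spots it held less in both rNLS8 sections, and least in rNLS8 replicate 2. In the bands the log2 ratios of the summed list were 1.71, 2.15, 1.18 and 1.12. Both rNLS8 sections were thus alike there and below control, with rNLS8 replicate 2 resting on 16 spots.

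Beside the selecting genes, the genes that set the selected spots apart included G protein signalling, receptor and adhesion genes. These differences come from the spots that were chosen and carry no test. Of 3260 genes with at least 30 UMI in the selected spots of each section, 601 were higher than in the remaining spots in all 4 sections and 471 lower, and 10 averaged at least 2-fold higher. Rgs12, a regulator of G protein signalling, led with 250, 350, 252 and 196 CPM, against 62.4, 75.6, 87.8 and 82.3 CPM in the remaining spots (mean log2 ratio 1.73 ± 0.43, SD, n = 4 sections). Gnb4, a G protein beta subunit and a standard claustrum marker, stood at 436, 505, 246 and 213 CPM against 127, 98.3, 121 and 110 CPM (1.52 ± 0.67, SD, n = 4). Its lead over the remaining spots was largest in the control sections, and its level outside was alike in all sections.

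The next genes by mean log2 ratio were Ptpru (1.39), a receptor tyrosine phosphatase, Shisa6 (1.28), an auxiliary protein of AMPA-type glutamate receptors, Tmem163 (1.23), a zinc transporter, Bdnf (1.17), the brain-derived neurotrophic factor, and Igsf21 (1.15), a synaptic adhesion protein. Cpne4 (1.07), Adra2a (1.02), the alpha-2A adrenergic receptor, Gng2 (1.02), a G protein gamma subunit, Stk32c (0.99), the Nogo receptor relative Rtn4rl2 (0.97), the cortical transcription factor gene Neurod6 (0.94), the GDNF co-receptor gene Gfra1 (0.91) and Lrfn2 (0.91) completed the 15. Each of these 15 genes had a larger mean ratio in the bands than in all selected spots, with Rgs12 at 2.07, Gnb4 at 1.90 and Ptpru at 1.67. Among the less abundant claustrum genes, Oprk1, the kappa opioid receptor, stood at 15.6, 30.9, 21.6 and 13.9 CPM against 4.73 to 5.13 CPM outside, and Car3, a carbonic anhydrase, at 22.6, 9.51, 14.4 and 6.93 CPM against 1.30 to 2.57 CPM. Both were higher than outside in every section, on few UMI.

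The genes lowest against the remaining spots included several known from striatal medium spiny neurons. Necab2, a calcium-binding protein gene, stood at 177, 111, 175 and 87.8 CPM in the selected spots against 361, 365, 302 and 170 CPM outside (-1.12 ± 0.41, SD, n = 4). It was lower than outside in every section. The phosphodiesterase gene Pde10a (-1.10), the transcription factor gene Zic1 (-1.02), Rasd2 (-0.90), Rgs9 (-0.87), Pcp4l1 (-0.86), Ppp1r1b (-0.85), which encodes DARPP-32, and Pde1b (-0.82) followed. Gad2, the GABA-synthesizing enzyme, was also lower (-0.78), as were Strip2, Kcnab1, Id4, Adcy5 and Rgs4.

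**Figure D2:**
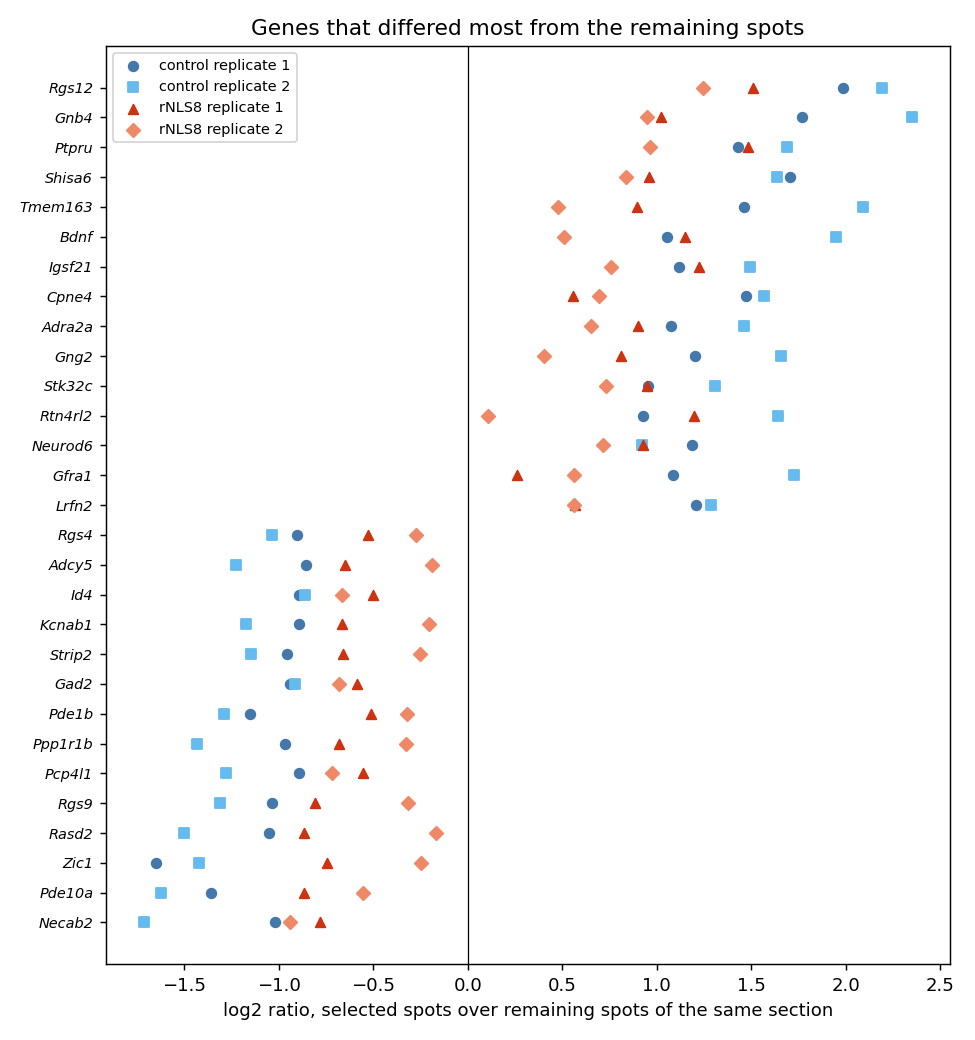
Log2 ratio of CPM in selected over remaining spots of the same section for the 15 genes most above and 14 of those most below, with 1 point per section and a line at 0. Gnb4 and Tmem163 lie farther right in the control sections than in the rNLS8 sections, while the points of Neurod6 and Gad2 lie close together.

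Levels fell off within a few array steps of the bands. Gnb4 stood at 517, 621, 292 and 352 CPM inside the bands, at 288, 233, 197 and 255 CPM in spots 1 step away, and at 166, 115, 164 and 176 CPM 2 steps away. Rgs12 went from 276, 414, 316 and 317 CPM inside to 142, 153, 192 and 194 CPM at 1 step and 103, 90.1, 116 and 119 CPM at 2 steps. Spots beside the bands, which the selection left out, thus still held more Gnb4 and Rgs12 than spots farther away in every section. Striatal markers went the other way, from 2065, 2362, 2427 and 1527 CPM inside the bands to 8572, 12067, 6416 and 3661 CPM at 8 to 12 steps. At 1 step they stood at 2793, 5410, 3064 and 1657 CPM, above the bands in every section, by little in rNLS8 replicate 2. These values lay below the 5643, 8471, 5102 and 2781 CPM of all spots outside the bands. Striatal marker levels thus rose with distance, and spots directly beside the bands were not rich in them. In rNLS8 replicate 2 the bands held 16 spots, and its values are the least precise.

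**Figure D3:**
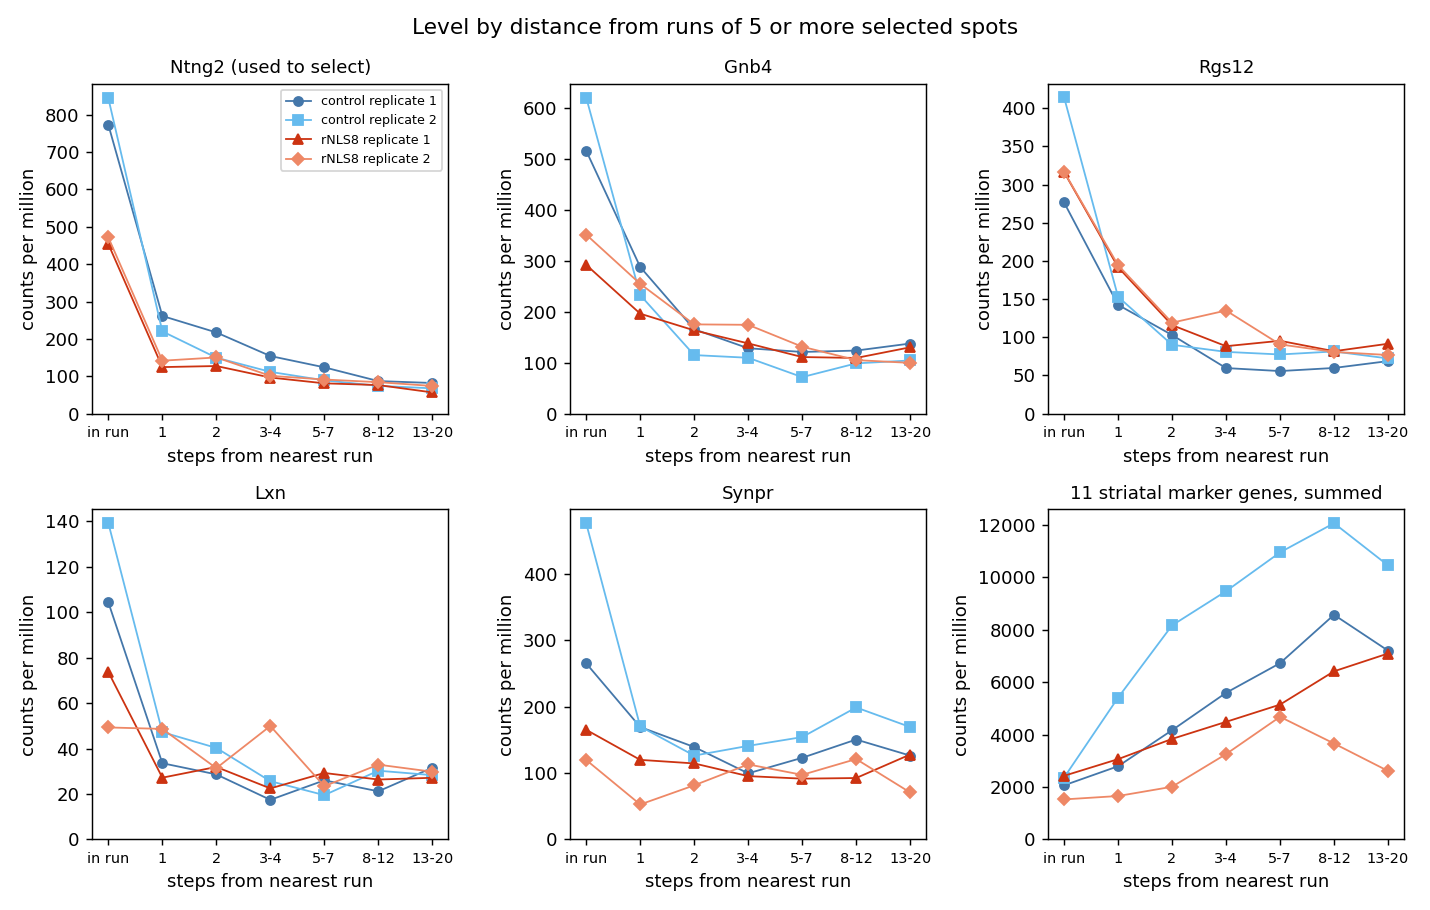
CPM summed over spots by distance in array steps from the nearest run of 5 or more selected spots, for Ntng2, Gnb4, Rgs12, Lxn, Synpr and the sum of 11 striatal marker genes, with 1 line per section. Gnb4 and Rgs12 decline from inside the runs to 2 steps in all 4 sections, and the striatal sum rises in all 4 up to 5 to 7 steps.

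The gene row that could hold the transgene was looked at first. The Tardbp row held 0 UMI in the selected spots of both control sections, where a count of 0 allows up to 5.22 and 3.57 CPM at 3 counts, and 6 and 5 UMI in rNLS8 replicates 1 and 2. In the remaining spots it held 0 and 0 UMI in control and 188 and 133 UMI in rNLS8. The row was detected only in the sections labelled rNLS8. Which TDP-43 RNA its probes read is not given in the sources used here, and 7.20 and 11.6 CPM in the selected spots of rNLS8 replicates 1 and 2 lay near the 6.93 and 7.77 CPM of the remaining spots.

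Since the selecting genes cannot be tested in spots they chose, they were tested in spots chosen by Gnb4, Lxn, Gng2, Oprk1, Synpr and Car3 in the same way. Of those spots, 26.9%, 30.1%, 22.5% and 10.3% were also among the selected ones. Nr4a2 stood there at 142 and 216 CPM in the control sections and 70.1 and 30.4 CPM in the rNLS8 sections, on 83, 175, 49 and 12 UMI. The groups did not overlap, and Nr4a2 fell by 1.82 on the log2 scale (SE 0.30, adjusted p = 0.00122, edgeR's quasi-likelihood test with Benjamini-Hochberg adjustment). Ntng2 stood at 400 and 577 CPM in control and 229 and 152 CPM in rNLS8, again without overlap, and fell by 1.42 (SE 0.22, adjusted p = 0.000924, edgeR). Bmp3 stood at 29.1, 34.6, 32.9 and 40.6 CPM, in which the groups overlapped (log2 0.08, SE 0.36, adjusted p = 0.95, edgeR). Both Nr4a2 and Ntng2 passed when any 1 section was left out, with their largest adjusted p-values, 0.0338 and 0.0479, without rNLS8 replicate 2. In this comparison 139 of 8032 genes (1.73%) passed. These spots were again a fixed 3% per section, ranked by genes of which Gnb4 and Synpr fell in the selected spots (below). Striatal markers summed to 5235, 6358, 4735 and 2446 CPM in them, against 2632, 3062, 3070 and 2075 CPM in the selected spots. Fewer cells of a type, less RNA per cell and a different tissue mix in the chosen spots cannot be told apart here. A lower level of Nr4a2 or Ntng2 can be any of them.

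How rNLS8 sections differ from control at this place was then tested by summing the UMI of the selected spots in each section and leaving Nr4a2, Ntng2 and Bmp3 out. Of 8190 genes tested, 97 passed (1.18%), of which 20 rose (0.244%) and 77 fell (0.94%). Bst2, C4b, B2m, Oasl2 and Gfap, genes of the interferon response, complement, antigen presentation and reactive astrocytes, had the largest rises. Nptx2, Gm45623, Scg5, Myl4 and Kctd1 had the largest falls, followed by Synpr of synaptic vesicles.

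Interferon-response genes were low in control and several-fold higher in rNLS8. Bst2, which encodes the interferon-induced membrane protein tetherin, stood at 6.95 and 7.13 CPM in the control sections and 70.8 and 106 CPM in the rNLS8 sections (log2 fold change 3.47, SE 0.40, adjusted p = 0.00271, edgeR). Oasl2, an interferon-induced oligoadenylate synthetase relative, stood at 12.2 and 7.13 CPM against 48.0 and 71.6 CPM (2.52, SE 0.41, adjusted p = 0.0153, edgeR). Ifi27 stood at 36.5 and 49.9 CPM against 128 and 166 CPM (1.61, SE 0.25, adjusted p = 0.0141, edgeR). In each of the 3, rNLS8 replicate 2 was the higher rNLS8 section. The control values of Bst2 and Oasl2 rested on few UMI. Of 27 genes on the interferon list in the files, 8 passed the filter on low counts, and these 3 rose and none fell. Among those that did not pass, Irf9, a subunit of the interferon-activated transcription factor, stood at 8.69, 14.3, 29.98 and 60.1 CPM. The median log2 fold change of the 8 was 1.66, against 0.01 over all genes tested. A gene could pass that filter on its rNLS8 counts alone, so the median of the 8 is a description.

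Complement and antigen presentation genes formed the next group. B2m, beta-2-microglobulin of the major histocompatibility class I complex, stood at 38.2 and 57.1 CPM in control and 244 and 404 CPM in rNLS8 (2.59, SE 0.28, adjusted p = 0.00271, edgeR). C4b, the complement component 4 gene, stood at 22.6 and 8.32 CPM against 78.0 and 132 CPM (2.70, SE 0.42, adjusted p = 0.0141, edgeR). C1qa and C1qc, subunits of the initiating complement complex made by microglia, rose as well, with C1qa at 122 and 145 CPM against 291 and 457 CPM (1.35) and C1qc at 50.4 and 57.1 CPM against 139 and 164 CPM (1.37). Of 18 listed genes in the files 8 were tested, and these 4 rose. The third C1q gene, C1qb, stood at 41.7, 41.6, 76.7 and 157 CPM and did not pass over all selected spots. In the bands it stood at 29.5 and 38.6 CPM against 85.6 and 190.0 CPM and rose (1.68, SE 0.35, adjusted p = 0.00219, edgeR). There 5 of 7 tested genes of the list rose, against 58 of 7030 genes (0.825%) over all tested in the bands. These genes passed the same filter on low counts, and the bands of rNLS8 replicate 2 held 16 spots.

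The promoters of the 2 genes with the smallest adjusted p-values among those that rose, Bst2 and B2m, are shown for their interferon-response motif. Both are the 250 bases before the gene's start in GRCm38.p6, read 5′ to 3′, with each match to the interferon-stimulated response element core in capitals. The core searched, on both strands, is GAAA, any 2 bases and GAAA again. Bst2 lies at chr8:71537473-71537722, minus strand, and its capitals hold 2 overlapping matches. B2m lies at chr2:122147437-122147686, plus strand, and holds 1 match.
Bst2: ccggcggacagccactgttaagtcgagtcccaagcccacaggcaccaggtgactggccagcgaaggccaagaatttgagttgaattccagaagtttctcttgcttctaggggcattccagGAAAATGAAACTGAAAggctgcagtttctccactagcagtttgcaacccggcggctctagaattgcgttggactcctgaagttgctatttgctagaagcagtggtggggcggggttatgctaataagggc
B2m: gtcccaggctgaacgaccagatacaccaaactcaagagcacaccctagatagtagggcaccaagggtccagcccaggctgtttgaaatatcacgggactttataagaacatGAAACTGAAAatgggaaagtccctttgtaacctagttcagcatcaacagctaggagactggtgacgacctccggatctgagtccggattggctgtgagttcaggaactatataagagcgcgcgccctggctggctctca
Of the 20 genes that rose, 15 had a promoter in the RefSeq table, and 3 held the motif (B2m, Bst2 and Ctss). It stood in 4 of 45 matched promoters of genes that fell, in 2.71% of matched promoters of genes tested and in 2.98% of all promoters. The motif AAAGGTCA, to which Nr4a2's protein is known to bind, stood in 1 of the 45 matched promoters of genes that fell, in 0 of the 15 and in 1.34% of all promoters.

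Of the lists for reactive glia, the following genes passed. Gfap, the intermediate filament of astrocytes, stood at 120 and 96.3 CPM in control and 389 and 744 CPM in rNLS8 (2.28, SE 0.28, adjusted p = 0.00461, edgeR), and was the 1 of 7 tested reactive astrocyte genes that rose, while Vim, another intermediate filament gene, stood at 24.3, 26.2, 40.8 and 62.4 CPM and did not pass. Of 15 tested genes of disease-associated microglia, 3 rose, all cathepsins: Ctsd from 103 and 86.8 CPM to 228 and 330 CPM (1.44), Ctss from 48.7 and 83.2 CPM to 158 and 236 CPM (1.40), and Ctsz from 59.1 and 49.9 CPM to 123 and 171 CPM (1.31). The median over the 15, which passed the same filter on low counts, was 1.08 and is likewise a description. Homeostatic microglia genes summed to 3582 ± 75.0 CPM across the control pair (SD, n = 2), against 5207 ± 393 CPM across the rNLS8 pair, and none of its 11 tested genes passed (median 0.43), as did none of 20 on the lysosome list (median 0.52). Cathepsins are lysosomal proteases, and the 3 that rose are known from activated microglia. Anxa5, which binds exposed phosphatidylserine, rose from 5.22 and 22.6 CPM to 69.6 and 62.4 CPM (2.02, SE 0.42, adjusted p = 0.0384, edgeR). Its 5.22 CPM in control replicate 1 is the level of 3 counts.

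Of the other genes that rose, 5 stand on none of the lists. Slc1a4, a neutral amino acid transporter, stood at 34.8 and 40.4 CPM in control and 91.2 and 122 CPM in rNLS8 (1.36). Sun2, a protein of the inner nuclear membrane, stood at 90.4 and 96.3 CPM against 240 and 196 CPM (1.14), and Pdrg1 at 155 and 220.0 CPM against 429 and 492 CPM (1.18). Plbd2, a phospholipase-like protein of lysosomes, stood at 88.7 and 96.3 CPM against 191 and 243 CPM (1.10), and Stac2 at 231 and 243 CPM against 411 and 573 CPM (0.94).

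Markers of the tissue around the selected spots differed as well. Control sections held 726 ± 257 CPM (SD, n = 2) of meningeal and choroid plexus markers and rNLS8 sections 1709 ± 579 CPM, with Ptgds the 1 gene of 4 tested that rose (781, 471, 1185 and 1844 CPM over the sections, log2 1.17). In the bands Ptgds stood at 469, 263, 704 and 647 CPM, lower than in all selected spots of each section. Fibre tract markers summed to 8234 ± 1115 CPM in control and 10230 ± 188 CPM in rNLS8, none of 12 passed, and all 12 were positive (median 0.42). In the bands 2 of 10 tested fibre tract genes rose, both of myelin: Mag (141 and 145 against 233 and 317 CPM) and Mobp (766 and 771 against 1114 and 1288 CPM), each with an adjusted p of 0.0497 (edgeR). Sox10, a transcription factor of the oligodendrocyte lineage, was the 1 of 5 tested oligodendrocyte precursor genes that rose in the bands (47.6 and 52.5 against 123 and 84.5 CPM). The part of these in the results was not tested.

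Several of the genes that fell furthest encode neuronal proteins. Nptx2, a neuronal pentraxin secreted at excitatory synapses in response to activity, stood at 50.4 and 38.1 CPM in control and 3.60 and 9.24 CPM in rNLS8 (-3.02, SE 0.49, adjusted p = 0.0153, edgeR), on 3 and 4 UMI in the rNLS8 sections. Scg5, a chaperone of the peptide hormone processing enzyme in secretory granules, stood at 772 and 606 CPM against 260 and 208 CPM (-1.64, SE 0.19, adjusted p = 0.00271, edgeR). Both rNLS8 sections lay below both control sections for each gene, with the rNLS8 values of Nptx2 resting on few UMI and far apart from each other.

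Genes of secreted peptides and granule proteins were also among those that fell. Npy, neuropeptide Y, stood at 417 and 690 CPM in control and 281 and 192 CPM in rNLS8 (-1.30, SE 0.24, adjusted p = 0.0214, edgeR) and was the 1 of 11 tested inhibitory neuron genes that fell. Chgb, a granin of dense-core vesicles, stood at 348 and 367 CPM against 162 and 159 CPM (-1.25), and Cck, cholecystokinin, at 1570 and 1570 CPM against 896 and 1097 CPM (-0.76). With Nrgn, the calmodulin-binding neurogranin (911 and 982 against 625 and 605 CPM, -0.72), and Nrn1, neuritin (351 and 401 against 157 and 196 CPM, -1.21), Cck made 3 of 20 tested excitatory neuron genes that fell. The median of that list was -0.35, and its 20 genes summed to 14763 ± 582 CPM across the control pair (SD, n = 2), against 11447 ± 266 CPM across the rNLS8 pair. The vesicular glutamate transporter gene Slc17a7, which marks cortical excitatory neurons, stood at 5596, 4567, 3869 and 4198 CPM and did not pass.

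Most synaptic vesicle genes had a negative change, and the kinase genes that passed fell. Of 24 tested presynaptic vesicle genes, 22 had a negative log2 fold change and 2 a positive one (median -0.44). Of the 24, 2 fell past the threshold, among them Snap25, a vesicle fusion protein (3630 and 4301 against 2724 and 2620 CPM, -0.67). Cplx1, a complexin that clamps vesicle fusion, rose (956 and 1227 against 1830 and 1878 CPM, 0.66). Prkcb, a protein kinase C, fell from 671 and 591 CPM to 275 and 280 CPM (-1.29, SE 0.16, adjusted p = 0.00461, edgeR). Camkk2, a calmodulin-dependent kinase kinase, fell from 396 and 424 CPM to 206 and 192 CPM (-1.14). They were 2 of 19 tested calcium-dependent kinase genes. At 13 to 20 steps from the bands, Prkcb stood at 828, 865, 365 and 265 CPM and Camkk2 at 382, 422, 170 and 137 CPM. Both were thus lower in rNLS8 far from the bands as well. Among potassium channel genes 1 of 27 passed, Kcnab2, a channel beta subunit, which rose (582 and 463 against 956 and 1014 CPM, 0.82). Of the axon cytoskeleton genes, 2 of 17 fell: Nefl, the light neurofilament (-0.75), and Stmn2, a microtubule regulator whose human transcript is a known splicing target of TDP-43 (1738 and 1625 against 1099 and 1074 CPM, -0.73). Stmn2 was also the 1 of 19 tested genes on the list linked to TDP-43 and amyotrophic lateral sclerosis that passed.

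Claustrum genes were among those that fell. Gnb4 stood at 436 and 505 CPM in control and 246 and 213 CPM in rNLS8 (-1.13, SE 0.17, adjusted p = 0.0107, edgeR), and Synpr, synaptoporin of synaptic vesicles, at 229 and 398 CPM against 130 and 118 CPM (-1.44, SE 0.24, adjusted p = 0.016, edgeR). Of 9 listed genes in the files, 6 were tested, these 2 fell, and the median was -1.004. Lxn, a carboxypeptidase inhibitor, stood at 83.4, 117, 55.2 and 34.7 CPM (-1.20, adjusted p = 0.0628, edgeR) and Gng2 at 123, 150, 84.0 and 73.9 CPM (-0.88, adjusted p = 0.0746, edgeR), neither past the threshold. The summed list went from 1086 ± 227 CPM (SD, n = 2) to 519 ± 63.7 CPM, a difference of -1.06 log2 units without overlap (exact permutation p = 0.333, the smallest possible). Of the genes that marked the selected spots, Tmem163 (-1.23), Gfra1 (-1.19) and Shisa6 (-0.95) also fell. The long list of falls held Calb1 (-0.91) and Lamp5 (-1.29), 2 of 8 tested markers of upper cortical layers, Gap43 (-0.84), a growth cone protein and 1 of 7 tested injury genes, and Rgs4 (-0.82), which with Nptx2 and Nrn1 made 3 of 25 tested activity-regulated genes.

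Several lists gave no call. No gene passed among 17 receptors for monoamines, opioids and acetylcholine, 24 guidance and adhesion genes, 14 genes of bone morphogenetic protein signalling, or 18 of the integrated stress and unfolded protein responses. Within the receptors, Htr2a stood at 33.0, 47.6, 15.6 and 20.8 CPM and Htr2c at 57.4, 32.1, 20.4 and 13.9 CPM. These serotonin receptor genes rested on few UMI. Also without a call were 9 striatal (median -0.22) and 5 layer 6 genes (median -0.23).

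**Figure D4:**
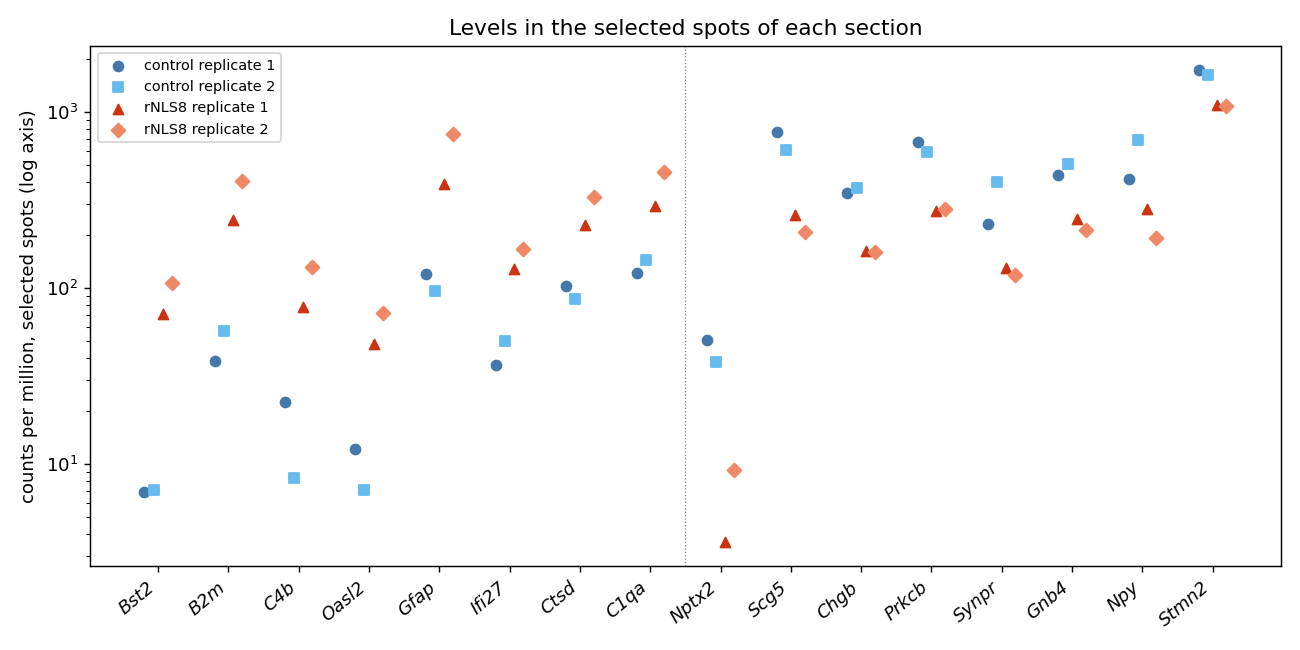
CPM in the summed selected spots of each section, on a log axis, for 8 genes that rose (left of the dotted line) and 8 that fell in rNLS8, with 1 point per section. Bst2 and Nptx2 are farthest apart between groups, at 6.95 to 7.13 against 70.8 to 106 CPM and 38.1 to 50.4 against 3.60 to 9.24 CPM.

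The calls depended on single sections. All 97 genes kept their direction whichever section was left out, but the number past the threshold moved. It was 463 when control replicate 1 was dropped and 833 when control replicate 2 was. Dropping rNLS8 replicate 2 left 42 genes, and dropping rNLS8 replicate 1 left 0 (edgeR, with 567 at an unadjusted p under 0.05). DESeq2 called 114 genes (1.39%) on all sections. In the bands 168 of 7030 genes passed (2.39%), 58 higher (0.825%) and 110 lower (1.56%), and 86 of the 97 were among them in the same direction. Without rNLS8 replicate 2, whose bands held 16 spots, that count was 0 (edgeR, 428 at an unadjusted p under 0.05).

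Whether the selected spots differed from the rest of their sections in their response was tested as the difference between the 2 log2 fold changes, with each section as a block. Genes that marked the spots had a more negative change in them than outside, and striatal genes a less negative one. Of 13154 genes 45 passed (0.342%), 27 with a lower change in the selected spots (0.205%) and 18 with a higher one (0.137%). The immune and glial rises gave no such difference in all selected spots: of the interferon, complement, disease-associated microglia and reactive astrocyte lists, no gene passed, with B2m at 2.59 in the selected and 2.73 in the remaining spots (difference -0.10, SE 0.21, adjusted p = 0.98, edgeR). In the bands Gfap did pass, with a difference of 0.82 (SE 0.19, adjusted p = 0.0269, edgeR).

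Gnb4 gave the clearest difference. Its CPM in the remaining spots was 127 and 98.3 in control and 121 and 110 in rNLS8, which overlapped (log2 fold change -0.10, SE 0.19), while the selected spots had 436 and 505 against 246 and 213 (difference -1.10, SE 0.13, adjusted p = 1.29e-12, edgeR). The fixed 3% admitted spots with lower shares of the selecting genes in rNLS8 sections. With 1 threshold for all sections, Gnb4's log2 ratio over the remaining spots was 1.72, 2.39, 1.34 and 1.08, against 1.77, 2.35, 1.02 and 0.95. The part of the lower shares in the differences of Gnb4 and the other claustrum genes was not tested. Gnb4 lies on chromosome 3 from 32578587 to 32616673 (GRCm38.p6). It passed with any 1 section left out, with a largest adjusted p of 0.0189 (edgeR), and in the bands, at -0.98 (SE 0.16). In the bands without 1 section it passed in 2 of 4 fits.

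The other claustrum genes went the same way. All 9 tested had a negative difference, with a median of -0.95, and 4 passed: Gnb4, Lxn (-1.15, SE 0.23, adjusted p = 0.000594, edgeR), Synpr (-0.95, SE 0.16, adjusted p = 1.95e-06, edgeR) and Gng2 (-0.81, SE 0.19, adjusted p = 0.0136, edgeR). In the bands Lxn and Gng2 did not pass, at -0.93 (adjusted p = 0.359) and -0.51 (adjusted p = 0.94, both edgeR), while Synpr did, at -0.94. Lxn stood at 25.8, 28.6, 27.9 and 29.3 CPM in the remaining spots, alike in all sections.

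Further genes with a larger fall in the selected spots included Gm45623 (-1.66), on chromosome 13 from 56750044 to 56753827 (GRCm38.p6), the matricellular protein gene Smoc2 (-1.46), C1ql3, a secreted synaptic organizer (-1.41), Bok, a relative of Bcl2 (-1.24), Tmem163 and Gfra1 (both -1.07) and Coro1a, an actin-binding coronin (-0.98). Gm45623 stood at 92.1, 139, 28.8 and 20.8 CPM in the selected spots. Npy, which fell in the selected spots, had a difference of -0.65 (SE 0.13, adjusted p = 0.000463, edgeR). Of the 15 genes that marked the selected spots in all sections, all 15 had a negative difference and 10 passed. Those genes were picked for a high ratio in the same sums, so that count is a description.

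Striatal genes showed the opposite difference. All 10 tested striatal markers had a positive difference (median 0.73), and 4 passed, among them Pde1b (0.79, SE 0.12, adjusted p = 4.45e-07, edgeR), Pde10a (0.75, SE 0.14) and Ppp1r1b (0.69, SE 0.10). Pde1b stood at 461 and 473 CPM in control and 532 and 367 CPM in rNLS8 in the selected spots, which overlapped, against 1030 and 1159 and then 760 and 460 CPM in the remaining spots. The change in the remaining spots was -0.96 for Pde1b and -0.93 for Ppp1r1b, where no gene of 13397 passed on its own (edgeR, 2077 at an unadjusted p under 0.05). How much striatum each section holds differs and was not tested. The largest positive differences were of Pdyn, prodynorphin (1.36), Rasd1 (1.30), Wdr54 (1.01), Zic1 (0.97) and Clic6 (0.95), with Rasd2 (0.64) and Dclk3 (0.60) also among the 10 largest.

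**Figure D5:**
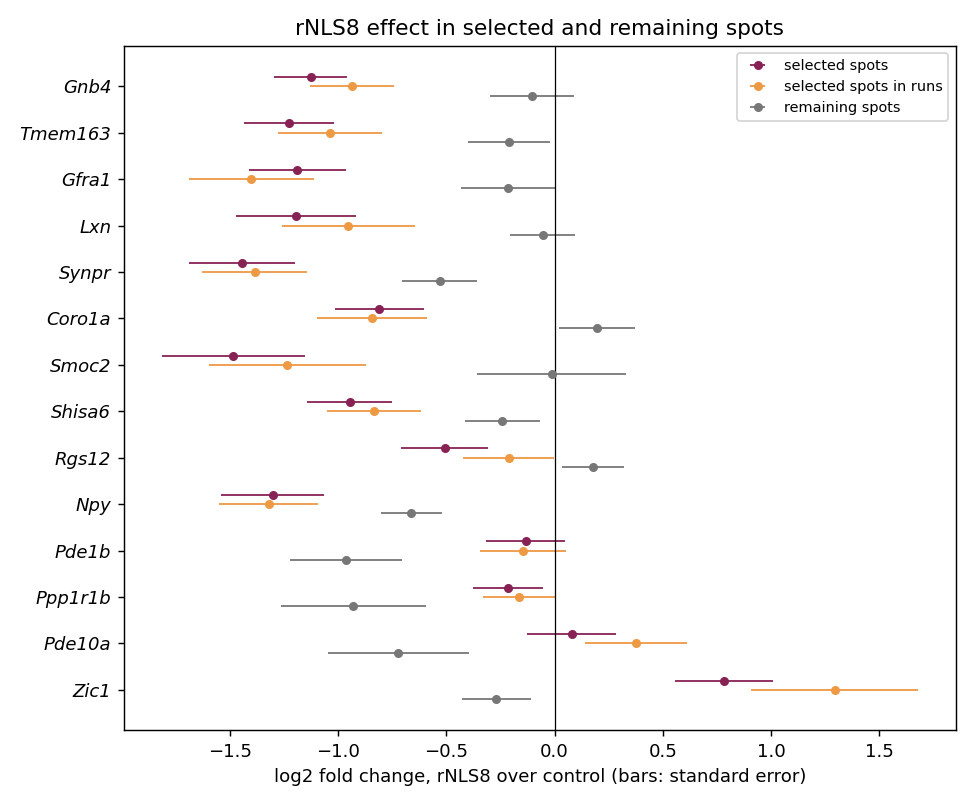
Log2 fold change of rNLS8 over control with its standard error, for 10 genes with a lower and 4 with a higher change in the selected spots, shown for all selected spots, the bands and the remaining spots. Gnb4 lies at -1.13 in the selected and -0.10 in the remaining spots, and Pde1b at -0.13 and -0.96.

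This comparison too depended on single sections and on the choice of spots. With the sections dropped in turn, in section order, 74, 5, 34 and 9 genes passed, with all 45 in the same direction each time, and Gnb4 and Pde1b in all 4. DESeq2 called 3 genes (0.0228%). In the bands 17 of 12969 genes passed (0.131%), 15 of them among the 45. Those counts were 21, 0, 3 and 4 with the same sections left out.

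The selected spots were then set against the same number of spots chosen by genes of layer 6 and of the striatum, wherever these lay in the section. Layer 6 spots were the top 3% by Foxp2, Syt6 and Hs3st4, and striatal spots the top 3% by 3 striatal genes, Ppp1r1b and Adora2a among them, without the selected ones. Against layer 6 spots, 3 of 8065 genes (0.0372%) had a different rNLS8 effect, all higher in the selected spots: Mbp (0.56, SE 0.08, adjusted p = 0.000574, edgeR) and Mobp (0.58, SE 0.12, adjusted p = 0.0309, edgeR), both of myelin, and Ptgds (1.01, SE 0.18, adjusted p = 0.00636, edgeR). Mbp stood at 5339, 4401, 5982 and 5746 CPM in the selected spots, so control replicate 2 was lowest. No claustrum gene passed against layer 6 spots. The layer 6 spots had median depths of 5821, 3016, 5076 and 2930.5 UMI, against 7938, 9449, 10381 and 4848.5 UMI in the selected spots. Of the layer 6 spots, 12.8%, 9.64%, 7.87% and 19.2% adjoined a selected spot. The part of depth and of adjoining spots in this comparison was not tested. Gnb4 had a difference of -1.08 (SE 0.25, adjusted p = 0.131), Cnih3, an AMPA receptor auxiliary gene, of -1.44 (SE 0.32, adjusted p = 0.0892) and Shisa6 of -0.97 (SE 0.25, adjusted p = 0.256, all edgeR). In the layer 6 spots themselves Gnb4's change was -0.05. By smallest p, Carhsp1 (1.76) and Igfbp5 (0.71) were among the next positive differences, and Atp6v0c (-0.80), Bok (-1.79) and Rtn4r (-0.80) among the negative ones, none of which passed.

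Against striatal spots, 7 of 8854 genes (0.0791%) had a different effect. The striatal spots had median depths of 8168, 16155, 12475 and 7980.5 UMI. Of them, 2.56%, 1.20%, 3.37% and 0% adjoined a selected spot. The part of depth in this comparison was not tested. Gnb4 (-1.33, SE 0.25, adjusted p = 0.0322, edgeR), Syp, the vesicle protein synaptophysin (-0.68, SE 0.11, adjusted p = 0.011, edgeR), Nnat (-1.13), the protocadherin gene Pcdh8 (-1.24) and Trp53i11 (-1.29) had a lower change in the selected spots. Rgs4 (0.87) and Cnr1, the cannabinoid receptor 1 gene (1.57), went the other way. AI593442 (0.77), Kcnab1 (0.67) and Hpca (0.58), and on the negative side Islr2 (-1.63), Ak5 (-0.93) and Cartpt (-2.59), came next and did not pass. Gnb4 was thus lower against the remaining and the striatal spots by test, and its difference against layer 6 spots, of like size, did not pass. Leaving out 1 section gave 0, 1, 25 and 5 genes against layer 6 spots and 59, 1, 38 and 8 against striatal spots, and DESeq2 called 0 (0%) in both comparisons (edgeR gave 427 and 724 at an unadjusted p under 0.05, DESeq2 18 and 63).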

How the data were processed

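The deposited matrices give unnormalized UMI counts for each gene in each spot under tissue, made by Space Ranger 2.1.0 per the file headers and with build mm10 per the submitters' processing notes (probe set: not given in the sources used here). From the deposited spatial tables, 1 score was read, Moran's I of a gene in a section, per the file headers. Of 4992 array spots, 3962, 3343, 3033 and 2656 were under tissue (sections in the report's order), with 17627577 to 28056089 UMI per section, and 65.5%, 83.0%, 98.0% and 98.1% of those spots were kept at 2000 UMI. The selected spots held 575236, 840988, 833822 and 432813 UMI in all, with median depths of 7938, 9449, 10381 and 4849 UMI against 6826, 7401, 9852 and 6442 in the remaining spots. Spot barcodes recur between sections because every array carries the same ones (1900 to 3047 shared per pair); no doublet caller was run on spots.

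UMI were summed per section, the replicate here, because spots of 1 section share a library. Quasi-likelihood models were fitted with edgeR 4.0.16 (R 4.3.3) to genes that passed filterByExpr, scaled by TMM factors, and p-values were adjusted by Benjamini-Hochberg over all genes tested, with a threshold of 0.05. Differences between spot sets were interaction terms with the section as a block. The script was tested on simulated data. DESeq2 1.42.0 was an alternative. Ratios of selected over remaining spots used a pseudocount of 1 CPM. Single values were compared with exact permutation tests. Between selected-spot sums of a pair of sections, the chi-square per degree of freedom was 2.70 in control and 1.45 in rNLS8, so sections differed by more than counting error; floors cover counting error only.

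The members, gene lists and tests were chosen with earlier results of these data known. Genes were named by rule: the 10 largest rises and falls past the threshold with at least 10 CPM (where fewer than 10 passed, the smallest p-values), every called gene of a list, 2 to 4 genes per list described, and the 15 genes with the highest ratio over the remaining spots. The 15 with the lowest ratio, the comparisons within bands and the spots chosen by 6 other claustrum genes were added after seeing the data. Of the listed claustrum genes, Smim32 has no row in the files used. Symbols on more than 1 row (11) were kept as separate genes. A few genes that met the rule are not reported here.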

Additional observations from a re-analysis of the deposited data

Results flagged for a closer look

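The rNLS8 effect differed between the selected spots and the remaining spots for 45 of 13154 genes by an interaction test (edgeR, adjusted p under 0.05). The same test against layer 6 spots gave 3 genes, and against striatal spots 7. Gnb4 is singled out because its difference against the remaining spots, -1.10 on the log2 scale (SE 0.13, adjusted p = 1.29e-12, edgeR), was the one with the smallest p, with the lower rNLS8 level in both rNLS8 sections. No explanation of these differences was tested.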

How the results depend on the processing

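Every alternative for the selected spots kept the direction of the named genes. The 97 genes became 348 with no filter on low counts, 165 and 212 with the top 2% and top 5% of spots, 222 and 314 with a minimum of 500 and 4000 UMI, 287 with the score taken after thinning spots to 2000 UMI and 168 in runs of 5 or more, an alternative added after seeing the data; leaving out 1 section gave 0 to 833. With the replicate number as a block the count was 143; the numbers did not pair the sections (r = -0.0400 over 8193 genes). The 45 genes of the comparison with remaining spots became 3 with DESeq2, 28 after thinning, 4 with 1 threshold for all sections, 19 with at least 2 selected neighbours and 17 in runs, and 5 to 74 with 1 section left out. Clic6 turned to -0.080 after thinning and to -0.22 with 1 threshold. Against layer 6 spots the 3 genes became 0 with DESeq2 and 7 with no filter (0 to 25 with 1 section left out), and against striatal spots the 7 became 0 with DESeq2 and 43 with no filter (1 to 59). The cause of these shifts was not tested.

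Values without a call also moved. The difference in the share of selected spots next to another, -5.94 percentage points, became 8.23 at 500 UMI and -18.4 to 6.50 with 1 section left out. The difference in the layer 6 list, 0.0084, went to -0.066 with the top 5%, -0.115 at 4000 UMI, -0.0067 after thinning, -0.070 with the score averaged over neighbours (added after seeing the data) and -0.102 to 0.111 with 1 section left out. That of the striatal list, -0.15, went to -0.456 to 0.109 with 1 section left out. The claustrum list stayed between -0.749 and -1.27 (exact permutation p = 0.333). Few UMI per spot, 2 sections per group and differing section shapes limit every result.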
